A study of Mus musculus with 18 samples.

Results

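A small set of fibroblasts in the mouse dorsal dermis carried high levels of Cxcl14, Steap4 and Gdf10 together. They were picked cell by cell from the unique molecular identifiers (UMIs, 1 per captured transcript). A barcode was a fibroblast if it had 850 to 7800 detected genes, under 13% mitochondrial UMIs, at least 20 UMIs of Col1a1, Col1a2 and Col3a1 together, at least 1 of Pdgfra and 0 of Ptprc. It was a member of the set if it also had at least 5 UMIs of Cxcl14 and at least 1 UMI of at least 3 of the 5 genes Steap4, Agt, Gdf10, Vit and Vtn. Of 23990 barcodes, 16877 passed the filter on genes and mitochondrial UMIs, 12119 of these were fibroblasts, and 271 fibroblasts were members (2.24% of the fibroblasts). The other 11848 fibroblasts of the same libraries served as the comparison.

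The cells came from 18 wild-type male C57BL/6J mice, young adults with skin in telogen, the resting phase of the hair cycle, and no treatment. Mice were kept under a light-dark cycle and collected every 4 h over 3 days, so that each of 6 zeitgeber times (ZT, hours after lights on) had 3 mice from successive days. Each mouse gave 1 library of dermal cells sorted for viability, with 4850221 to 40827442 UMIs in 318 to 2322 barcodes. All groups share genotype, sex and strain and differ only in ZT and day. No gene was deleted and no cell type was enriched, and fat and vessels had been scraped off before the skin was digested with collagenase. Of 23824 distinct barcodes, 164 (0.688%) occurred in more than 1 library. Of the members, 2 carried such a barcode, and 0 barcodes were a member in more than 1 library.

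Dermal fibroblasts make the collagen network of the skin and fall into types that differ in the signals they secrete. The genes of the rule encode secreted or membrane proteins. Cxcl14 is a chemokine of epithelia and stroma. Steap4 is a metalloreductase that reduces iron and copper. Agt is angiotensinogen, the precursor of the angiotensins. Gdf10 (BMP3b) is a ligand of the TGF-beta superfamily. Vit (vitrin) is a matrix protein, and Vtn (vitronectin) is an adhesion glycoprotein that binds integrins and PAI-1. Fibroblasts also have a circadian clock. CLOCK and BMAL1 (Arntl) drive Per, Cry, Nr1d1, Nr1d2 and Dbp through E-boxes, NR1D1 and NR1D2 repress Arntl and Nfil3, and DBP, TEF and HLF activate genes through D-boxes, where NFIL3 represses.

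Promoter sequence is shown for the clock output genes whose rhythm in the members is described further on and which hold a short clock motif in the window read here. The windows span 250 bases before to 50 bases after an annotated start in RefSeq (GRCm38.p6), and 32851 such windows exist. The motifs searched on both strands were the E-box CACGTG, which reads the same on both strands, and the D-box forms TTATGTAA and TTACGTAA, and none of the 3 overlaps another here. Of all windows, 7.15% hold CACGTG and 1.06% hold either D-box form. Of the 16 genes with a rhythm in the members, 12 have a window, and in 3 of these (Per3, Tef and Adh1) at least 1 window held a motif. The 250 bases before the start are printed 5′ to 3′ on the strand of the gene, with the motif in capitals. Per3 encodes a period protein, and its sequence lies at chr4:151044666-151044915 on the minus strand, with D-box letters starting 205 and 158 bases before the start. Tef encodes a PAR bZIP activator of D-boxes and has a pair of starts, at chr15:81802423-81802672 and chr15:81811164-81811413 on the plus strand, with an E-box 127 and 138 bases before each.
Per3: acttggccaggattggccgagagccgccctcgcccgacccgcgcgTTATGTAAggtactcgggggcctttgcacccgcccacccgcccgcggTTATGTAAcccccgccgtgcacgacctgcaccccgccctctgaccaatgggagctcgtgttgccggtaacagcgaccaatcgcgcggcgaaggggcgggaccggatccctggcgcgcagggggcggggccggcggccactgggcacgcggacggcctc
Tef, upstream start: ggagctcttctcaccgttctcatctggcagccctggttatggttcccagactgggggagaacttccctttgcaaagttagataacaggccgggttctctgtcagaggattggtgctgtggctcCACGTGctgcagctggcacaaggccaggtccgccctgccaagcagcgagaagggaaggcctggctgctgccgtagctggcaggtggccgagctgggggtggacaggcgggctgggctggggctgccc
Tef, downstream start: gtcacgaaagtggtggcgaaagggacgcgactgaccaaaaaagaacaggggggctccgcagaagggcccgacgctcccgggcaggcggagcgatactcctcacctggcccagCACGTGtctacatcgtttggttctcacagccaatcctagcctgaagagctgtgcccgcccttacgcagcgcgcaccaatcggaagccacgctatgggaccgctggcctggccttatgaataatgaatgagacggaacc
The other 9 genes with a window, among them Nr1d1, Nr1d2 and Dbp, held none of these letters in it, which says nothing about sites elsewhere. The matches are a description and were not tested for binding.

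Members were found in all 18 libraries, from 2 cells (ZT18 replicate 1 and ZT22 replicate 3) to 30 cells (ZT22 replicate 1). Their share of the fibroblasts ranged from 0.529% (ZT22 replicate 3, 95% Wilson interval 0.145% to 1.91%) to 3.89% (ZT2 replicate 1, 2.41% to 6.23%), with a mean of 2.31% ± 0.932 (SD, n = 18 libraries). Such intervals cover counting error only. The shares were 3.89%, 2.78% and 1.21% at ZT2, 3.00%, 3.35% and 3.12% at ZT6, and 1.61%, 2.28% and 1.57% at ZT10. They were 3.44%, 1.29% and 1.85% at ZT14, 1.89%, 1.47% and 2.26% at ZT18, and 3.00%, 3.04% and 0.529% at ZT22. The libraries of ZT6 lay close together and those of ZT2 and ZT22 spread over most of the range. A 24 h cosine fitted to these shares had an R2 of 0.150, and a permutation test of this R2 over the libraries (100000 draws, two-sided) gave p = 0.293, so the share was not found to change over the day. With at least 4 of the 5 further genes required, 204 cells were members and the cosine gave p = 0.0246 in the same permutation test.

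**Figure D1:**
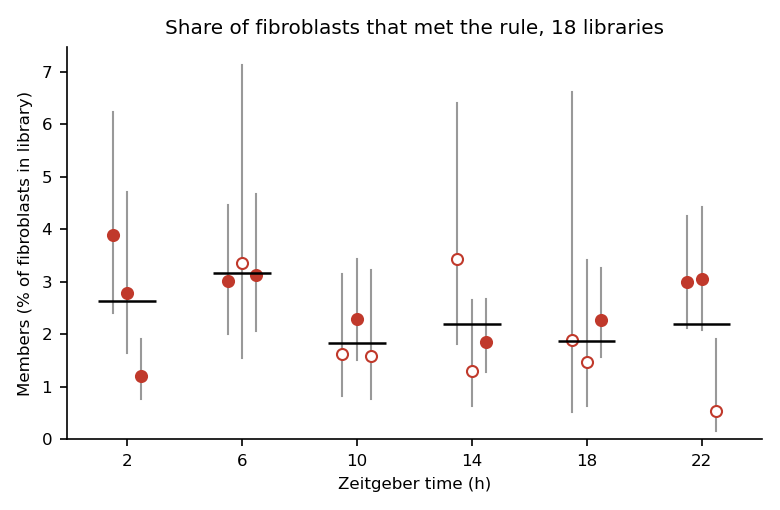
Members as a percentage of the fibroblasts in each of the 18 libraries, against zeitgeber time in hours. Points are libraries with their 95% Wilson intervals, filled where a library held at least 10 members, and black bars are the means of 3 libraries. The means lie between 1.82% (ZT10) and 3.16% (ZT6), and the lowest library is ZT22 replicate 3 at 0.529%.

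The depth of the members was close to that of the other fibroblasts. Their median was 22412 UMIs and 4317 genes per cell, against 22134 UMIs and 4519.5 genes in the others, and the median mitochondrial share was 2.23% against 2.21%. Doublets were not removed, and the rule asks for 0 UMIs of the leukocyte gene Ptprc. Cxcl14 ranged from 5 to 273 UMIs per member, with a median of 13 and quartiles of 8 and 24.5. Of the 5 further genes, 109 members had all 5, 95 had 4 and 67 had 3. Gdf10 was seen in 98.2% of the members (median 13 UMIs), Steap4 in 98.9% (median 8), Vit in 81.2% (median 3), Agt in 77.5% (median 4) and Vtn in 59.8% (median 1). These shares are fixed in part by the rule. For comparison, 2963 Ptprc-positive cells of the same libraries were taken, at a median of 11369 UMIs per cell. They also had fewer collagen UMIs than were asked of a fibroblast, and no UMI of Pdgfra. Such cells should lack the genes of the rule, and a UMI in them may come from free RNA. The share with a UMI was at most 2.87% (Steap4) for the 6 genes of the rule. Since Ptprc-positive cells with much fibroblast RNA were left out, this share does not measure free or doublet RNA in all Ptprc-positive cells.

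Many fibroblasts lay close to the limits of the rule. There were 66 members with only 5 to 7 UMIs of Cxcl14, and just outside stood 182 fibroblasts with 1 to 4 UMIs of Cxcl14 and at least 3 further genes. Another 335 fibroblasts had at least 3 further genes and 0 UMIs of Cxcl14. On the other side, 309 fibroblasts had at least 5 UMIs of Cxcl14 but fewer than 3 further genes, 64 of them with 2 and 130 with 0.

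The 10 libraries with at least 10 members (3 at ZT2, 2 at ZT6, 1 each at ZT10, ZT14 and ZT18, and 2 at ZT22) were used for gene levels, and they held 225 of the 271 members. UMIs were summed over the members and over the other fibroblasts of each library and put on the counts-per-million scale of that sum (CPM), a level. The member sums held 329754 to 719269 UMIs per library. Ratios of members to others are means over the 10 libraries of the log2 of (CPM + 1), with the SD between libraries. Because the members were chosen within this very contrast, the ratios are a description and carry no test. A gene was counted as higher or lower if its mean was at least 10 CPM in either set, its ratio was at least 2-fold, and its sign was the same in all 10 libraries. Of 8156 genes, 297 were higher (3.64%) and 555 lower (6.8%). The median log2 ratio of all these genes was -0.22. These shares are the background for each count of list genes that were higher or lower. The gene lists were chosen with earlier results of these data known, so such counts are a description as well.

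Among the genes of the rule, Cxcl14 (ENSMUSG00000021508, mm10 chr13:56288643-56296551, minus strand) stood at 1155 CPM ± 494 (SD, n = 10 libraries) in the members and 19.6 ± 7.62 in the others. The lowest member library was at 551 CPM and the highest at 1949. Steap4 (chr5:7960457-7982213, plus strand) stood at 440 against 11.7 CPM, and its member libraries spanned only 340 to 550. Gdf10 (chr14:33923587-33937983, plus strand) stood at 716 against 69.5 CPM, Agt (chr8:124556534-124569706, minus strand) at 320 against 9.01, Vit (chr17:78508064-78627408, plus strand) at 190 against 16.8, and Vtn (chr11:78499091-78502324, plus strand) at 139 against 10.9. Cxcl14 thus varied more between libraries than Steap4 or Gdf10.

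**Figure D2:**
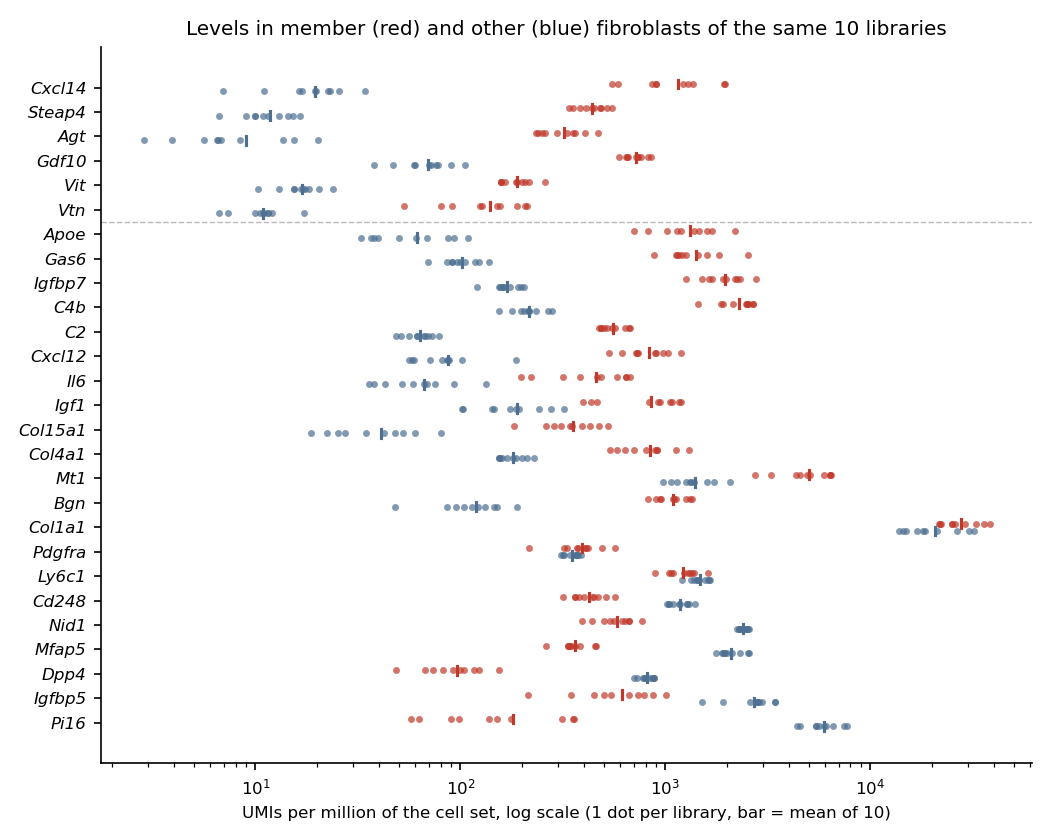
Levels of 27 genes in CPM (log axis), 1 dot per library and a bar for the mean of 10 libraries, in members (red) and other fibroblasts (blue). The 6 genes above the dashed line are those of the rule. Apoe, Gas6, Igfbp7, C4b and C2 are separated in every library, Col1a1 and Pdgfra overlap, and Pi16 and Dpp4 are lower in the members in every library.

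Outside the rule, 3 genes of secreted proteins with high ratios and high levels in the members were Apoe, Gas6 and Igfbp7. Apoe, a lipid-carrying apolipoprotein, stood at 1316 CPM ± 439 in the members and 61.6 ± 27.2 in the others. Gas6, the ligand of the TAM receptor kinases, stood at 1417 ± 474 against 102 ± 20.03. Igfbp7, an IGF and activin binding protein, stood at 1951 ± 448 against 168 ± 24.7. None of these 3 genes overlapped between the sets. Among the 15 genes with the highest ratios outside the rule were Tmem176a (93.2 against 1.28 CPM), Tmem176b (142 against 3.01), Apoe, Ccl19, Sparcl1, Dio3os, Nfasc, Gas6, Slc1a3, P2ry1, Aoc3, Bmper, Adcyap1r1 and Fgd5. Their log2 ratios ran from 5.36 ± 0.97 (Tmem176a) to 3.61 ± 0.59 (Fgd5). Slc1a3 is a glutamate transporter, P2ry1 an ADP receptor, Adcyap1r1 the receptor of PACAP, Aoc3 an amine oxidase, and Bmper binds BMPs. Ccl19, a ligand of CCR7, stood at 183 CPM against 8.06. Its UMIs all fell on the gene copy ENSMUSG00000071005, and since near-identical copies of Ccl19 exist in the mouse genome, the copy is uncertain.

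Apoe, Gas6 and the Tmem176 genes are also genes of macrophages. In the Ptprc-positive cells, a UMI of Apoe was seen in 72.1%, of Tmem176b in 76.5% and of Gas6 in 52.2%, against 84.1%, 49.8% and 99.6% of the members and 26.8%, 2.79% and 34.4% of the other fibroblasts. The 6 immune genes Ptprc (at 0 in both sets by the rule), Cd52, Cd74, Lyz2, Tyrobp and Fcer1g summed to 11.6 CPM in the members and 16.1 in the others, higher in the members in 3 of 10 libraries, and Cd74, their most abundant gene, stood at 5.85 CPM against 7.23. Ccl19, Sparcl1, Nfasc and Aoc3 were seen in at most 0.439% of the Ptprc-positive cells and in 34.3% (Nfasc) to 74.9% (Sparcl1) of the members. The Ptprc-positive cells were chosen for little fibroblast RNA, as described above, which can lower their shares for genes of fibroblasts.

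Of 6 general fibroblast genes, the rule itself asks for Col1a1, Col1a2, Col3a1 and Pdgfra, so only Dcn and Lum bear on the label. Dcn (decorin) stood at 19213 CPM in the members and 13607 in the others. Lum (lumican, a collagen-binding proteoglycan) was higher, at 1646 against 497 CPM. The 4 genes of the rule were within 2-fold. Of the mural cell genes, Mcam, Higd1b, Acta2 and Tagln were at 0 UMIs in the members and Rgs5 at 0.625 CPM, while Abcc9 was higher (31.3 against 9.54 CPM), Des was lower (2.12 against 29.0) and Pdgfrb, their most abundant, stood at 74.6 against 56.4. The mural list of 12 genes summed to 115 CPM against 103. The 6 endothelial genes summed to 2.73 CPM against 2.99, with Cldn5 at 0 UMIs and Cdh5 the most abundant at 1.25 CPM. Of the 6 adipocyte genes, Adipoq, Plin1, Cidec and Lep were at 0 UMIs, and the sum was 4.82 CPM against 0.719, with Fabp4 the most abundant. The 6 keratinocyte genes summed to 28.3 against 33.1 CPM, of which Krt10 made 25.7 in the members. The 6 Schwann cell genes summed to 39.0 against 45.4, with Sox10 at 0 UMIs, S100b higher, at 23.5 against 1.02 CPM, and Mbp lower, at 9.77 against 42.9 CPM. The 6 muscle genes summed to 43.3 against 54.5 CPM and were uneven between libraries, reaching 311 CPM in the members of ZT14 replicate 3 and 279 CPM in the others of ZT18 replicate 3.

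**Figure D3:**
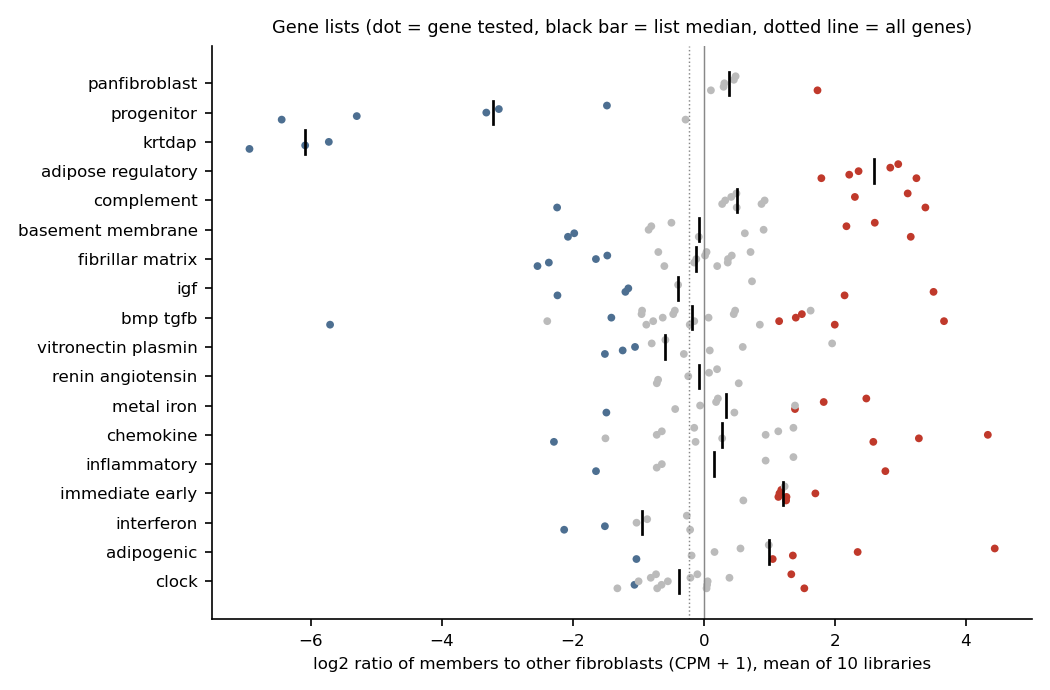
Mean log2 ratio of members to other fibroblasts (x axis, CPM + 1) for the genes tested in 18 lists (y axis), 1 dot per gene, red where higher and blue where lower by the rule for counting and grey otherwise. Black bars are list medians, and the dotted line is the median of all 8156 genes (-0.22). The adipose regulatory list lies wholly to the right and the progenitor and Krtdap lists to the left.

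The markers of other fibroblast types split in opposite directions. Since these lists were chosen with earlier results of these data known, their counts are no independent support for a cell type. Of 6 genes that mark adipogenesis-regulatory fibroblasts of fat tissue (F3, Fmo2, Clec11a, Mgp, Bgn and Cygb), all 6 were higher, with a median log2 ratio of 2.61 beside -0.22 over all genes. Bgn (biglycan) stood at 1086 against 119 CPM and Cygb (cytoglobin) at 657 against 90.5. Of 6 genes of progenitor-like interstitial fibroblasts, 5 were lower and 0 higher, with a median of -3.22. Pi16, a peptidase inhibitor, stood at 180 CPM ± 118 in the members and 5917 ± 1097 in the others. Dpp4, a surface dipeptidyl peptidase, stood at 96.1 ± 30.7 against 812 ± 62.9, while Ly6c1 was within 2-fold at 1224 against 1472. Of the fibroblast genes Sult1e1, Igfbp3 and Inmt, only Inmt was counted as higher, at 1498 against 327 CPM. Krtdap, Dmkn and Sbsn were all lower. Of 4 papillary genes with a counted level, Apcdd1 was lower and 0 were higher, and Rspo3, the 1 dermal papilla gene with a counted level, was lower at 3.33 against 67.5 CPM.

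The 10 genes with the lowest ratios were Akr1c18, Krtdap, Sema3e, Aldh1a3, Bmp3, Dmkn, Dact2, Sbsn, Bmp7 and Itgb7. Akr1c18, a hydroxysteroid dehydrogenase, stood at 0.586 CPM in the members and 243 ± 44.2 in the others, and was seen in 1.11% of the members against 76.5% of the others. Sema3e, a semaphorin, stood at 0.899 against 138 CPM, and Aldh1a3, which makes retinoic acid, at 5.05 against 314. Itgb7, an integrin subunit, had 0 UMIs in the members against 52.9 CPM in the others. With a floor of 3 UMIs over the members of the 10 libraries, it was at least 90.5-fold lower. Bmp3 (0.209 against 80.9 CPM) and Bmp7 (1.72 against 98.0) are ligands of the same superfamily as Gdf10.

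Of 22 genes of the BMP and TGF-beta pathway with a counted level, 5 were higher (Bmper, Ltbp4, Acvr2a, Id2 and Fst) and 2 lower (Bmp4 and Bmp7), beside 3.64% higher and 6.8% lower over all genes, and their median was -0.18. Antagonists and binding proteins went both ways. Fst (follistatin, which traps activin) stood at 326 against 136 CPM and Ltbp4 (a latent TGF-beta binding protein) at 166 against 36.8. Chrd (chordin) at 25.1 against 42.5 CPM and Fstl1 at 1770 against 3228 were lower in 10 of 10 libraries by less than 2-fold. Acvr2a, a type II receptor, stood at 42.9 against 12.6 CPM, and the receptors Bmpr1a, Bmpr2, Acvr1, Tgfbr1, Tgfbr2 and Tgfbr3 were within 2-fold. Of the BMP targets, Id2 stood at 336 against 126 CPM, Id1 at 18.6 against 4.80 was higher in 9 of 10 libraries, and Id3 was within 2-fold.

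In the insulin-like growth factor system, the ligand Igf1 stood at 848 CPM ± 307 against 189 ± 72.1. Its binding proteins went both ways, with Igfbp7 higher and Igfbp4 (744 against 1618), Igfbp5 (612 against 2709) and Igfbp6 (1524 against 3428) lower. The receptor Igf1r was not counted, at 54.1 against 68.6 CPM. In the complement list, 3 of 11 genes were higher and 1 lower, beside 3.64% and 6.8% over all genes, with a median of 0.50. C4b, of the classical and lectin pathways, stood at 2275 CPM ± 417 against 216 ± 37.7. C2, which forms a convertase with C4b, stood at 555 against 63.4. The inhibitor Cd55 (decay-accelerating factor) was lower, at 94.3 against 427 CPM. C3 was 1.41-fold higher in 10 of 10 libraries and so was not counted, at 4061 against 2860 CPM.

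Basement membrane genes also split. Col4a1 (841 against 180 CPM), Col4a2 (410 against 65.5) and Col15a1 (356 against 41.1) were higher, while Nid1 (578 against 2393) and Lamb1 (35.9 against 128) were lower. Of 15 genes of the fibrillar matrix, 0 were higher and 4 lower (beside 3.64% higher and 6.8% lower over all genes), namely Mfap5 (362 against 2098), Col14a1 (156 against 663), Loxl1 (248 against 758) and Fbn1 (688 against 1831). Sparc, the most abundant gene of this list, stood at 19094 against 18682 CPM. Of the genes around the rule's Agt, none of 6 was counted. Ace stood at 698 against 815 CPM, Agtr1a at 41.6 against 39.6, and Ren1, Agtr1b and Mas1 had 0 UMIs in the members. Of 9 partners of vitronectin and plasmin, 0 were higher and 3 lower (Plat, Plau and Itgb5), with Plat at 145 against 395 CPM. Around Steap4, the ferroxidase Cp (336 against 57.9 CPM) and the metallothioneins Mt1 (4999 against 1388) and Mt2 (1653 against 619) were higher, Steap2 was lower (11.2 against 32.3), and the ferritins Fth1 and Ftl1 were within 2-fold.

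Of 13 chemokine genes, 3 were higher and 1 lower, beside 3.64% and 6.8% over all genes. Cxcl12, the ligand of CXCR4, stood at 831 CPM ± 203 against 87.4 ± 37.8, and Cxcl16 at 59.0 against 8.83, while the scavenger receptor Ackr3, which binds CXCL12, was lower at 194 against 930. Il6 stood at 461 CPM ± 176 against 66.4 ± 29.5, higher in 10 of 10 libraries. The other inflammatory genes Cxcl1, Cxcl2, Ccl2 and Ccl7 were not counted, since libraries differed in direction for each and the ratios of Cxcl2, Ccl2 and Ccl7 were also under 2-fold, and Ptgs2 was lower. The sum of the 6 inflammatory genes in the members ran from 944 CPM (ZT6 replicate 3) to 6609 (ZT10 replicate 2), and in the others from 872 to 3095. Immediate early genes, which rise within minutes of stimulation or of cell isolation, were higher in the members. Of 8, 6 were counted as higher (Fos, Fosb, Jun, Junb, Atf3 and Zfp36), and the sum of all 8 was 21096 CPM against 8716, higher in 10 of 10 libraries. How far dissociation contributes to these and to the inflammatory genes was not tested. Of 6 interferon genes, 0 were higher and 2 lower (Irf7 and Rsad2). Of 9 adipogenic genes, 4 were higher (Apoe, Cebpd, Lpl and Hsd11b1) and 1 lower (Ebf2), and Pparg stood at 3.42 against 1.31 CPM. Cebpd is an early adipogenic factor, Lpl the lipoprotein lipase, and Hsd11b1 an enzyme that makes active glucocorticoid.

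The neighbours of the rule were not alike. In the fibroblasts with at least 3 further genes but under 5 UMIs of Cxcl14, Apoe stood at 501 CPM, C4b at 1168, Igfbp7 at 846 and Pi16 at 1897, between the members and the rest. The fibroblasts with at least 5 UMIs of Cxcl14 but under 3 further genes shared several genes with the members. Of the adipose regulatory genes, Bgn stood at 1318 CPM there against 1086 in the members, Cygb at 701 against 657, Fmo2 at 364 against 327 and F3 at 680 against 314, while Clec11a was lower at 135 against 228. Gas6 stood at 1049 against 1417 and Lum at 1530 against 1646. They had less Apoe (48.8 CPM) and C4b (401), and more Cilp (cartilage intermediate layer protein) at 1910 CPM against 129 in the members, Lox (lysyl oxidase) at 1312 against 219, Mgp at 1441 against 274, Col14a1 at 1036 against 156 and Eln (elastin) at 1181 against 253. These are values for sets of cells chosen by the rule's own genes, as means over the same 10 libraries, and carry no test.

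Rhythm over zeitgeber time was not used by the rule and was tested. A 24 h cosine and sine were fitted to the summed counts of the 10 libraries with edgeR's quasi-likelihood test, and p-values were adjusted over all genes tested by the Benjamini-Hochberg method. The amplitude is in log2 units from mean to peak, and its SE and that of the peak time come from leaving out each library in turn. Since ZT10, ZT14 and ZT18 each had 1 library here, the fit with all 18 libraries is given beside the results. The mice are separate animals of successive days.

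In the members, 16 of 5899 genes (0.271%) had an adjusted p under 0.05 (edgeR). They were Nr1d1, Dbp, Fmo2, Per3, Nr1d2, Klhl13, Cdkn1a, Hspb1, Enpep, Lox, Tef, Fmo1, Slc6a6, Noct, Lrrn4cl and Adh1. At an unadjusted p under 0.05 there were 491 genes (8.32%). In the other fibroblasts of the same 10 libraries, which had far more UMIs, 537 of 13214 genes passed (4.06%). Of the 16 genes, 13 also passed in the others (81.25%), beside 319 of the 5896 genes tested in both sets. Only Hspb1, Lox and Noct did not pass there, so most of these rhythms were not particular to the members. When the counts of the others were thinned to the UMI total of the members, 61 passed. This thinning matched UMIs but not cells, since the member sums rest on 13 to 30 cells per library and those of the others on far more. The counts of 61 and 16 are therefore not on an equal footing. The number of rhythmic genes in the members was 17 with all 18 libraries, and 9 of the 16 were among them.

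Clock genes led the rhythm. Of 18 in the list, 14 were tested in the members and 5 passed (Nr1d1, Dbp, Per3, Nr1d2 and Tef; 35.7%, beside 0.271% of all genes tested), and 12 had an unadjusted p under 0.05 (85.7%, beside 8.32% of all genes tested). The median amplitude was 1.39 for the clock list beside 0.23 for all genes tested.

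Nr1d1, the repressor REV-ERB alpha, stood at 11.7, 12.1 and 14.6 CPM in the members of the ZT2 libraries, 61.2 and 108 at ZT6, 140 at ZT10, 22.3 at ZT14, 2.03 at ZT18, and 2.80 and 0 at ZT22. The libraries of ZT6 and ZT10 lay above all others, and the 8 libraries not fitted followed the same order, with 125 and 188 CPM at ZT10 and 0 at ZT18 and ZT22. The amplitude was 3.18 ± 0.29 (SE, n = 10 libraries) with a peak at ZT 8.63 ± 0.280 h (edgeR adjusted p = 8.38e-06, and 1.13e-09 with 18 libraries). Dbp, the D-box activator, stood at 2.33, 3.03 and 0 CPM at ZT2, 61.2 and 85.6 at ZT6, 161 at ZT10, 70.5 at ZT14, 20.3 at ZT18, and 1.40 and 1.69 at ZT22. Among these libraries, ZT2 and ZT22 lay below all other times. Its amplitude was 3.13 ± 0.62 with a peak at ZT 10.3 ± 0.515 h (edgeR adjusted p = 0.000147).

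Per3 stood at 2.09 to 21.2 CPM at ZT2, 34.8 and 51.4 at ZT6, 87.4 at ZT10, 79.1 at ZT14, 28.4 at ZT18 and 9.79 and 15.2 at ZT22, with an amplitude of 1.69 ± 0.21 and a peak at ZT 11.5 ± 0.407 h (edgeR adjusted p = 0.00612). Tef stood at 4.67 to 12.1 CPM at ZT2 and 83.4 at ZT10, with an amplitude of 1.74 ± 0.34 and a peak at ZT 11.3 ± 1.18 h (edgeR adjusted p = 0.0153). These are the 2 genes whose upstream sequences are printed above. Nr1d2, the paralog of Nr1d1, peaked at ZT 10.6 ± 0.607 h with an amplitude of 1.64 ± 0.40 (edgeR adjusted p = 0.00861). Nr1d1, Dbp, Per3 and Nr1d2 passed whichever of the 10 libraries was left out, and Tef in 8 of 10 such fits. With 18 libraries, all 5 passed. With only the 7 libraries of at least 20 members, Nr1d2 (edgeR adjusted p = 0.0731) and Tef (0.207) did not pass. No ZT2 library had 20 members, so this fit lacked that time.

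By edgeR, no other clock gene tested passed in the 10 libraries, while DESeq2 on the same libraries also called Nfil3 and Hlf. Hlf, a PAR bZIP factor like Dbp and Tef, was too low for the edgeR test (DESeq2 adjusted p = 0.00507). Nfil3, the D-box repressor, stood at 64.7 to 121 CPM at ZT2 and 8.59 at ZT14, and peaked at ZT 23.6 ± 1.16 h (edgeR adjusted p = 0.0595, and 0.00373 with 18 libraries, and DESeq2 adjusted p = 0.00246 with 10). Arntl, the BMAL1 gene, had an amplitude of 1.68 and a peak at ZT 23.3 (edgeR adjusted p = 0.264, unadjusted p = 0.00349, and DESeq2 adjusted p = 0.262 with 10 libraries and 0.00113 with 18). Per2 had an amplitude of 1.42 ± 0.37 and a peak at ZT 14.6 (edgeR adjusted p = 0.258) and Clock one of 0.63 ± 0.14 (edgeR adjusted p = 0.256, and 0.567 with 18 libraries, where DESeq2 gave 0.602). Arntl, Per2 and Clock had 0 to 38 UMIs in the members of each fitted library.

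**Figure D4:**
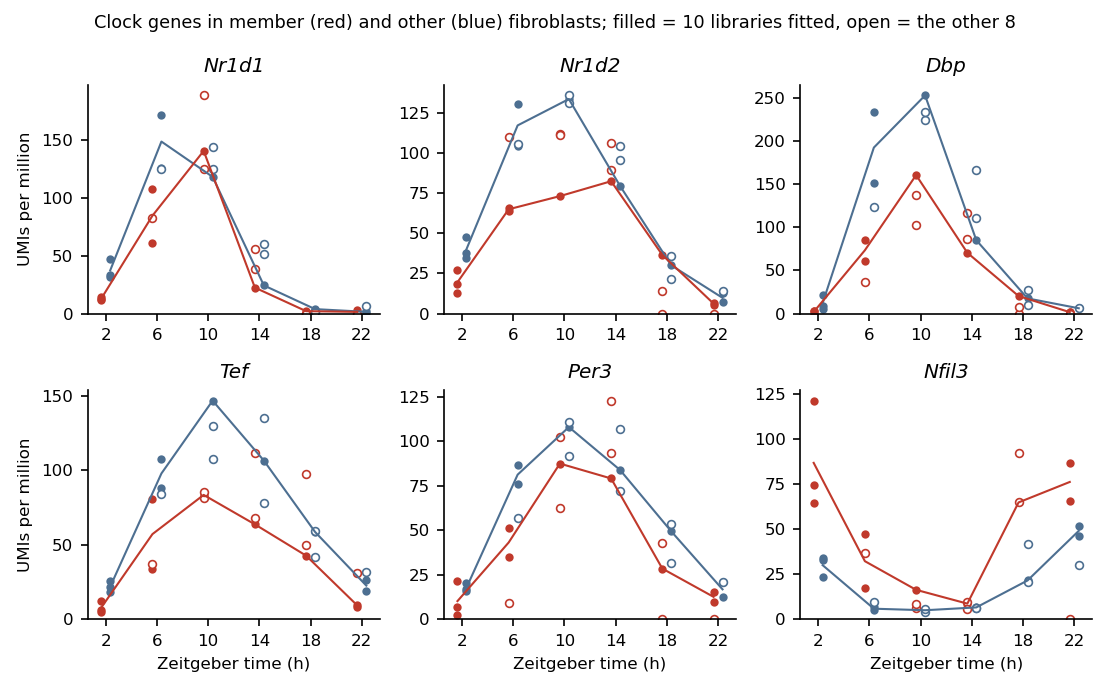
Levels of 6 clock genes in CPM against zeitgeber time in hours, in members (red) and other fibroblasts (blue). Each point is a library, filled for the 10 libraries fitted and open for the other 8, and lines join the means of the filled points. Nr1d1, Nr1d2, Dbp, Tef and Per3 are highest between ZT6 and ZT14 in both sets, and Nfil3 is highest at ZT22 and ZT2.

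In mean level over the 10 libraries, Nfil3 (56.7 against 23.3 CPM) and Bhlhe40 (151 against 50.9), both repressors, were higher in the members, Tef (34.5 against 61.7) was lower, and the other 13 clock genes with a counted level were not counted as different. In the rhythm of the others, Nr1d1 had an amplitude of 3.23 and a peak at ZT 7.62, Dbp 3.06 and ZT 9.73, Per3 1.61 and ZT 11.1, Nr1d2 1.82 and ZT 9.18, and Tef 1.61 and ZT 11.1. Nfil3 had an amplitude of 1.89 there, against 1.36 in the members. The peak of the members was later by 1.01 ± 0.511 h for Nr1d1, 0.603 ± 0.241 h for Dbp and 1.40 ± 0.397 h for Nr1d2 (SE over 10 libraries). For Per3 (0.474 ± 0.538 h) and Tef (0.152 ± 0.741 h) the shift was smaller than its SE. Over the 14 clock genes tested in both sets, the fitted peak was later in the members for 12, by a median of 0.687 h, beside 2889 of 5896 for all genes tested in both. Of those 5896 genes, only 319 passed for rhythm in the others, so most had no called rhythm whose peak could shift. The 14 clock genes were read in the same 10 libraries and are not separate observations. The difference in rhythm, tested by the interaction of cell set and time with both sums of a library kept together, did not pass for any clock gene. It gave an edgeR adjusted p of 0.353 for Nr1d1, 0.150 for Dbp, 0.416 for Nr1d2 and 0.992 for Per3, which does not show that the rhythms are alike. At an unadjusted p under 0.05 in this edgeR test there were 8 of the 18 clock genes, beside 659 of the 12828 genes tested.

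The genes of the rule were used to pick the cells at every time, so their fitted rhythm in the members is not read. Apoe, Gas6, Igfbp7, C4b and Cxcl12 had amplitudes of 0.10 to 0.35 and none passed. Of the 257 tested genes that were higher in the members, 52 had an unadjusted p under 0.05 (20.2%, beside 8.32% of all genes tested) and 2 passed (0.778%, beside 0.271%), namely Fmo2 and Fmo1. Of the 261 tested genes that were lower in the members, 34 had an unadjusted p under 0.05 (13.03%) and 2 passed (0.766%), namely Tef and Lrrn4cl.

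Fmo2, a flavin monooxygenase that is one of the adipose regulatory markers, had the smallest p outside the clock list. It stood at 175, 267 and 167 CPM in the members at ZT2, 152 and 169 at ZT6, 230 at ZT10, 523 at ZT14, 659 at ZT18, and 359 and 573 at ZT22. The 4 libraries of ZT14 to ZT22 lay above the 6 of ZT2 to ZT10. The amplitude was 1.09 ± 0.11 with a peak at ZT 17.6 ± 0.445 h (edgeR adjusted p = 0.000954), and it passed whichever library was left out. With 18 libraries the adjusted p was 0.146, where ZT14 replicate 1, with 9 members, was at 96.6 CPM. In the other fibroblasts Fmo2 ran from 32.7 to 176 CPM and peaked at ZT 14.5, so that the peak of the members was later by 3.13 ± 0.678 h. The difference passed with 10 libraries (edgeR adjusted p = 0.0156) and did not pass with 18 (0.471). Fmo1, of the same family, peaked at ZT 16.05 ± 0.752 h in the members with an amplitude of 0.75 ± 0.10 (edgeR adjusted p = 0.0213). It passed with 18 libraries (edgeR adjusted p = 0.0478) and in 6 of the 10 fits that left out 1 library. With the replicate number as a block it did not pass (edgeR adjusted p = 0.05005). Fmo1 peaked at ZT 13.6 in the others, and the difference did not pass (edgeR adjusted p = 0.353).

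Of the remaining genes, Klhl13 (an adaptor of a ubiquitin ligase) and Enpep (aminopeptidase A, which cleaves angiotensin II) were high early in the day. Klhl13 stood at 65.4 to 84.9 CPM at ZT2 and 14.2 at ZT18 and peaked at ZT 1.34 ± 0.481 h (edgeR adjusted p = 0.00949, and 0.0123 with 18 libraries). With only the libraries of at least 20 members, Klhl13 did not pass (edgeR adjusted p = 0.329). None of those libraries is from ZT2, where Klhl13 was highest, so that fit cannot decide on its rhythm. Enpep stood at 42.02, 30.3 and 39.6 CPM at ZT2 and 2.03, 1.72 and 0 at ZT10, ZT14 and ZT18, and peaked at ZT 2.33 ± 0.598 h (edgeR adjusted p = 0.0124, and 0.0527 with 18 libraries). It was the 1 gene of 6 tested in the renin-angiotensin list that passed (16.7%, beside 0.271% of all genes tested in the members), and it stood at 1.88 to 16.3 CPM in the others, where it peaked at ZT 2.19. Cdkn1a (p21, a cell cycle inhibitor) peaked at ZT 23.4 ± 0.888 h (edgeR adjusted p = 0.00949), but with 18 libraries its adjusted p was 0.809, and ZT14 replicate 1, which was not among the 10, held 102 UMIs (329 CPM). Slc6a6 (the taurine transporter) peaked at ZT 12.0 and Lrrn4cl at ZT 10.6. Both also passed with 18 libraries (edgeR adjusted p = 0.0131 and 0.0266) but in only 5 and 4 of the 10 fits that left out 1 library. With 18 libraries, Hspb1, Lox and Adh1 did not pass (edgeR adjusted p = 0.315, 0.528 and 0.146) and Noct was not tested. With the replicate number as a block, Slc6a6 (edgeR adjusted p = 0.0636) and Adh1 (0.161) did not pass, while Lrrn4cl did (0.0341). When 1 library was left out, Hspb1 passed in 9, Lox in 6, Noct in 3 and Adh1 in 1 of the 10 fits.

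**Figure D5:**
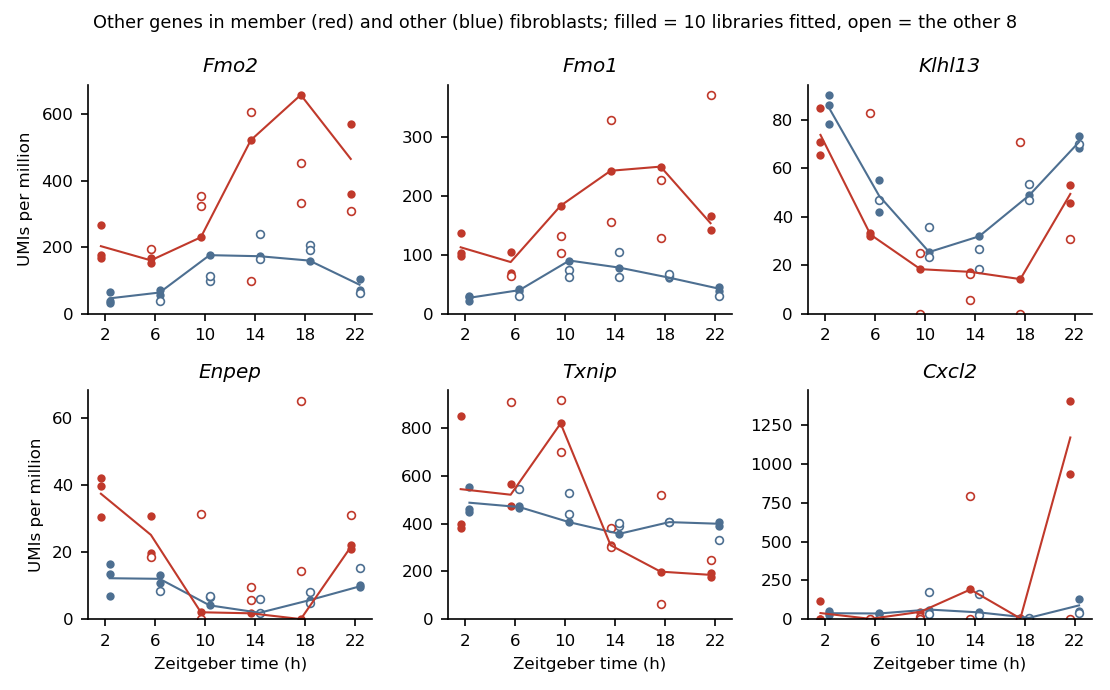
Levels of 6 further genes in CPM against zeitgeber time in hours, in members (red) and other fibroblasts (blue). Filled points are the 10 libraries fitted, open points the other 8, and lines join the means of the filled points. Among the filled points, Fmo2 and Fmo1 are higher in the members at every time, with their highest library at ZT18, Klhl13 and Enpep are highest at ZT2, Txnip is lower in the members from ZT14 on, and Cxcl2 reaches 1406 in 1 library.

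The difference in rhythm between members and others passed for 16 of 12828 genes (0.125%) with 10 libraries. With all 18 libraries, 0 passed in edgeR (525 at an unadjusted p under 0.05), and with DESeq2 on the 10 libraries 2 passed. Leaving out 1 gene with only a clone name, the 5 genes with the smallest p were Il1rl1 (the IL-33 receptor), Tnfaip6 (a hyaluronan-binding protein), Cxcl9, Cxcl2 and Birc3. Il1rl1, Cxcl9 and much of Cxcl2 rested on few cells. All 47 UMIs of Il1rl1 in the members were in 1 cell of ZT10 replicate 2. Of the 554 UMIs of Cxcl2 in ZT22 replicate 2, 552 were in 1 cell of 26, while the 1006 UMIs of ZT22 replicate 1 were spread over 7 of 30 cells. Cxcl9 had 67 UMIs in 3 of 28 cells of ZT14 replicate 3. Tnfaip6 was broader, at 409 to 2256 CPM in the members against 202 to 593 in the others, but its 3 member libraries of ZT2 alone ran from 636 to 1630 CPM. Birc3 (an inhibitor of apoptosis) was seen in 7 to 27 members of each library, at 70.9 to 239 CPM against 34.04 to 80.2 in the others. Txnip, a glucose-responsive inhibitor of thioredoxin chosen here after its values were seen, stood at 382 to 852 CPM at ZT2 to ZT10 and at 176 to 309 at ZT14 to ZT22 in the members of the 10 libraries, without overlap, and at 357 to 552 in the others. Of the libraries not fitted, ZT18 replicate 2 stood at 518 CPM. The difference gave an edgeR adjusted p of 0.0432 with 10 libraries and 0.233 with 18.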

How the data were processed

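Droplet 3′ libraries were sequenced from 18 mice. The deposited values are UMI counts per gene and barcode, made by the authors with Cell Ranger 3.1.0 on mm10, per the submitters' processing notes. Positions are from GENCODE M21, promoters from RefSeq. The members and gene lists were chosen with earlier results of these data known. Doublets were not removed. UMIs were summed per library and cell set. Rhythm was fitted with edgeR 4.0.16 (R 4.3.3; filterByExpr, TMM, quasi-likelihood, Benjamini-Hochberg, 10 libraries with at least 10 members), with DESeq2 1.42.0 as an alternative. Other steps used Python 3.11.15 with numpy 2.4.6, scipy 1.17.1 and pandas 2.3.3. Named genes were the list genes, the 15 highest and 10 lowest ratios outside the rule, the 15 rhythmic genes and the 5 genes of differing rhythm with the smallest p, and Adh1 (the 16th rhythmic gene) and Txnip, which were added after their values were seen. Genes with only a clone name were left out. Some genes within these lists and counts are not reported here by name. The edgeR steps were tested on simulated counts. The replicate numbers follow the day of collection. Same-numbered replicates of different times were compared in the other fibroblasts, as deviations from the mean of each time. Their mean correlation was 0.0444 over 45 pairs (from -0.166 to 0.312). The mean for different numbers (-0.0214) is tied to it by this centring and is no separate reference. The numbers were not taken as pairs in the main fits, which does not show that the day had no effect. Counts with the replicate number as a block are given below.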

Additional observations from a re-analysis of the deposited data

Results flagged for a closer look

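These are the 16 genes whose rhythm differed between the members and the other fibroblasts in the interaction test over 10 libraries, each with its edgeR adjusted p. With all 18 libraries none of the 15 tested there passed (Myh4 was not tested), and with the counts of the other fibroblasts thinned to the members' total none of the 12 tested there passed (Il1rl1, C430049B03Rik, Myh4 and Tnni2 were not tested). With both changes together, Cxcl2 passed (0.0337). Il1rl1 gave 2.71e-06, Tnfaip6 0.00363, C430049B03Rik 0.00577, Cxcl9 0.00831, Cxcl2 0.0131, Birc3 0.0131, Fmo2 0.0156 and Thbs4 0.0174. Ccl7 gave 0.0233, Csrnp1 0.0246, Myoc 0.0253, Myh4 0.0320, Tnni2 0.0320, Ifrd1 0.0428, Txnip 0.0432 and Sntb2 0.0447. Few cells carried several of these values. Thbs4 (thrombospondin 4) had 28 UMIs in 1 cell of ZT10 replicate 2 and 3 UMIs in 1 cell of ZT14 replicate 3, and Myoc (myocilin) had 132 of its 140 UMIs of ZT6 replicate 3 in 1 cell. Myh4 and Tnni2 are genes of skeletal muscle fibres, and the 6 muscle genes summed to 311 CPM in the members of ZT14 replicate 3 and to at most 39.1 CPM in the members of the other 9 libraries fitted. The part of muscle RNA in these values was not tested.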

How the results depend on the processing

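Among the members, 16 genes passed for rhythm in the main setting. The count was 30 with DESeq2 (15 shared with the 16) and 237 with no filter on low counts. It was 54 with DESeq2 and all 18 libraries (11 shared). With libraries of at least 20 members it was 8 (4 shared: Nr1d1, Dbp, Fmo2 and Per3). All fits with this minimum used 7 libraries and held none of ZT2. Changing the cell rule also changed which libraries had at least 10 members. The count was 56 with at least 2 of the 5 further genes required (15 libraries, 11 shared). It was 12 with at least 10 UMIs of Cxcl14 (9 libraries, 6 shared). Leaving out 1 library each gave 11 to 20. In the other fibroblasts, 537 genes passed, and 1212 with DESeq2, 1677 with 18 libraries, 154 with libraries of at least 20 members, 61 after thinning to the members' UMI total, and 127 after thinning with 18 libraries. Leaving out 1 library each gave 153 (without ZT14 replicate 3) to 487, with 252 without ZT10 replicate 2. For the difference, 16 passed, and 2 with DESeq2, 123 with no filter, 0 with 18 libraries (525 at an unadjusted p under 0.05), 36 with libraries of at least 20 members, 0 after thinning (353 at an unadjusted p under 0.05), and 1 after thinning with 18 libraries. Leaving out 1 library each gave 14 to 35, with 35 without ZT2 replicate 1 and 26 without ZT6 replicate 3 or ZT22 replicate 1. No named gene counted as higher or lower in the members changed sign under the alternatives run. With the replicate number as a block, 20 genes passed in the members and 359 in the others, and 21 in the members with 18 libraries. Fmo1 (adjusted p = 0.05005), Slc6a6 (0.0636) and Adh1 (0.161) no longer passed in edgeR under the block.

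The R2 of the share over time was 0.402 (permutation p = 0.0246) with at least 4 of the 5 further genes, and 0.0980 to 0.279 leaving out 1 library each. With at least 10 UMIs of Cxcl14, 179 fibroblasts were members. Against the other fibroblasts, 160 genes were higher and 266 lower with a mean of at least 50 CPM required, 327 were lower with a pseudocount of 10, and 199 were higher and 851 lower with all 18 libraries (same sign in at least 16). Under TMM scaling, which moved the median log2 ratio from -0.22 to -0.13, 324 were higher and 478 lower. Leaving out 1 library each gave 297 to 313 higher and 551 to 585 lower. The causes were not tested. In the main rhythm fits with 10 libraries, 3 of the 6 times (ZT10, ZT14 and ZT18) had 1 library.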
